A study of Mus musculus with 6 samples.

Results

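The genes that load the replicative helicase onto DNA and run the replication fork were examined in bone marrow (BM) of mice carrying JAK3 M511I, with and without Phf6. The set holds 45 genes, chosen by gene symbol from the 54532 genes of the deposited expression table, and all 45 were present. It comprises 6 genes of the origin recognition complex, 6 of the MCM helicase, 6 licensing and firing factors, 5 genes of Cdc45 and GINS, 9 of the DNA polymerases and primase, 5 of replication factor C, 4 clamp and Okazaki fragment factors, and 4 genes of replication protein A and Claspin. The rule that chose them uses no measured value, but the set was chosen with earlier results of these data known. The study had already reported Mcm and Cdc family genes as higher in the cells without Phf6.

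RNA was sequenced from BM of C57BL/6 mice 100 days after transplantation, in 6 libraries, 3 for each of the labels Phf6 WT and Phf6 KO, here numbered by replicate as WT 1 to 3 and KO 1 to 3. According to the study's methods the KO donors were male Vav1-Cre;Phf6 fl/y mice (VC Phf6 + JAK3 M511I) and the WT donors were male Phf6 fl/y mice without Cre (Phf6 WT + JAK3 M511I), both taken as young adults. Lineage-negative donor cells of both groups received a retrovirus that carries GFP and JAK3 M511I, a Janus kinase with an activating amino acid change, and were given to lethally irradiated male recipients, so host cells that survived irradiation can be present unless GFP+ cells were sorted. The labels give the material as BM. The study describes the profiles of both groups as those of T-cell acute lymphoblastic leukemia cells. Whether GFP+ cells were sorted for RNA-seq is not given in the sources used here. The genotype labels end in a digit that rises over the samples of a group, and they were read as Phf6 because the design text names that gene.

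Vav1 drives Cre in blood-forming cells, and the deletion removes an internal part of Phf6, which a value per gene need not show. Phf6 itself stood at 7.47, 3.67 and 8.02 FPKM in WT 1 to 3 and at 6.73, 5.50 and 5.11 in KO 1 to 3, with a log2 fold change of -0.073 ± 0.33 (SE, adjusted p = 0.893, limma). FPKM is the number of sequenced fragments scaled to the length of the gene and the size of the library. All KO libraries lay below WT 1 and WT 3 but above WT 2, so the groups overlapped for Phf6. Without WT 2 its log2 fold change was -0.37 (adjusted p = 0.0992, limma). Phf6 passed in neither fit, so the assignment of libraries rests on the labels alone. The labels name no separate mice, and p-values measure only the spread between these libraries.

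Before S phase, the origin recognition complex, Cdc6 and Cdt1 load the MCM helicase onto DNA, a step called licensing that geminin prevents once replication has begun. The kinase Cdc7 with its activator Dbf4 then lets Cdc45 and GINS join MCM, which opens the helix. Primase and the polymerases alpha, delta and epsilon copy the strands, replication factor C loads the sliding clamp PCNA, and nuclease and ligase activities join the Okazaki fragments. Many of these genes are transcribed in late G1 phase under E2F factors, and cycling precursor cells of the marrow and thymus use all of them.

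The RNA of 14 of the 45 genes rose in the KO libraries, and no gene fell. These 14 passed an adjusted p of 0.05 as higher, which is 31.1% of the set beside 13.1% called higher among all 13393 genes tested. A fold change throughout is the difference of log2(FPKM + 1) between KO and WT from limma, with Benjamini-Hochberg adjustment over all genes tested. All 45 genes were tested. The genes that rose were Clspn, Mcm10, Dna2, Prim2, Mcm7, Orc1, Pole, Mcm4, Cdc6, Cdc7, Mcm2, Rpa3, Pola1 and Pola2. By limma 0 genes of the set passed as lower, where 13.3% of all genes did, and 0 were lower at an unadjusted p under 0.05 or by voom on recovered reads. The log2 fold change was positive for 44 of 45 genes, against 53.6% of all genes, and its median was 0.96 beside 0.086 over all genes tested.

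WT 2 stood apart from the other libraries, and its weight in these values is large. Genes under 1000 bases took 17.1% of its reads and 3.11% to 5.01% of those of the others. Without WT 2, 33 of the 45 genes rose and 0 fell (73.3% higher, beside 26.8% of all genes higher and 25.3% lower), and all 14 were among the 33. Without any 1 of the KO libraries 4 genes passed as higher, Clspn, Orc1, Pole and Prim2 (8.89%), a share near that of all genes called higher, which was 7.38%, 7.0% and 7.18% without KO 1, KO 2 and KO 3. Without WT 1 or without WT 3 the number was 7 (15.6%, beside 9.24% and 11.1% of all genes). All KO libraries lay above all WT libraries for 24 genes (53.3%, beside 26.2% of all genes), and above WT 1 and WT 3 for 40 genes (88.9%, beside 37.7%). No gene of the set had all KO libraries below all WT libraries, which 22.9% of all genes did.

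The 45 genes together took 0.205%, 0.195% and 0.182% of the reads of WT 1 to 3, and 0.391%, 0.484% and 0.570% of the reads of KO 1 to 3. The groups did not overlap in this share. In summed FPKM WT 1 to 3 had 524, 837 and 454 and KO 1 to 3 had 857, 1037 and 1255, so the groups did not overlap there either, but WT 2 came close to KO 1. The libraries of a group kept an order across the set. WT 2 was the highest WT library for 31 genes and WT 3 the lowest for 29, while KO 3 was the highest KO library for 33 genes and KO 1 the lowest for 37. The median coefficient of variation over the 45 genes was 44.7% among the 3 WT libraries, 15% between WT 1 and WT 3, and 18.9% among the KO libraries.

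**Figure D1:**
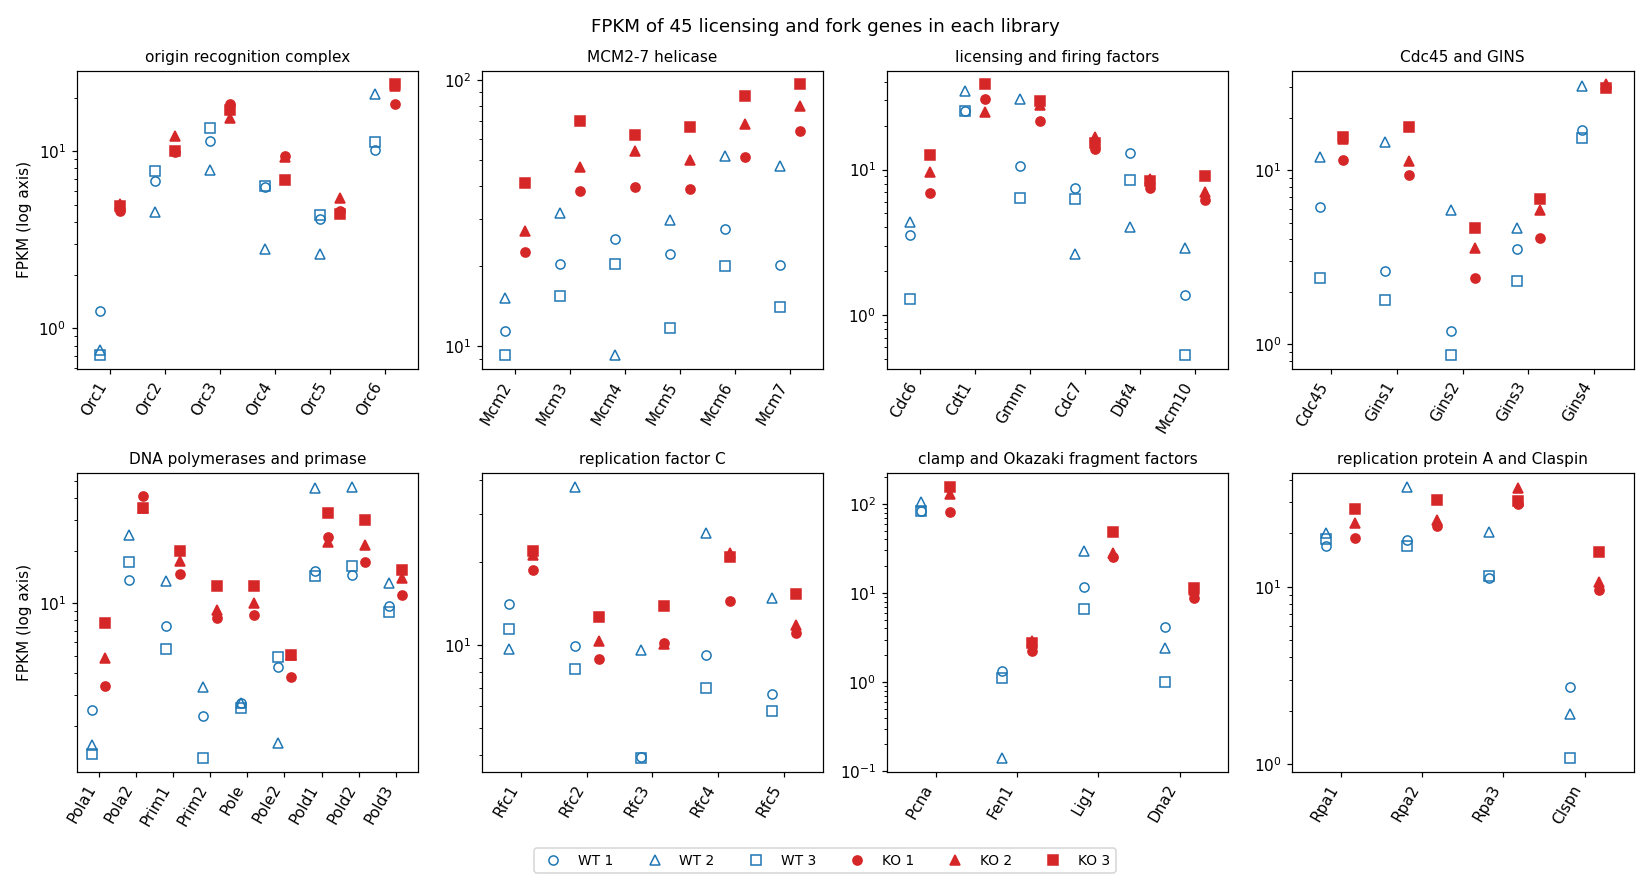
FPKM (log axis) of each of the 45 genes in every library, 1 panel per complex, with WT libraries as open blue and KO libraries as filled red symbols (circle, triangle and square for replicates 1, 2 and 3). WT 2, the open triangle, is the highest WT library for 31 genes, and Pcna has the highest mean of the set in both groups.

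The marrow libraries also differed in the blood cells they held, and in bulk RNA fewer cells of a type and less RNA per cell cannot be told apart. All 10 neutrophil markers fell (limma), where 13.3% of all genes did, and their summed FPKM was 6820 to 95339 in WT and 93.5 to 289 in KO. S100a8 and S100a9, subunits of a calcium-binding protein of neutrophils, had 1725 to 33166 and 2717 to 38832 in WT, beside 21.9 to 77.1 and 35.3 to 121 in KO. Of the monocyte markers 5 of 6 tested fell (beside 13.3% of all genes), with sums of 648 to 5096 in WT and 18 to 30.2 in KO. Csf1r, the receptor of a macrophage growth factor, had 2.46 to 15.9 in WT and 0.102 to 0.247 in KO, and the lysozyme gene Lyz2 had 289 to 4544 and 2.53 to 14.1. Summed over each of these lists, every KO library lay far below every WT library.

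WT 2 also held RNA of further blood cells. The erythroid sum was 58700 in WT 2, 141 and 501 in WT 1 and WT 3 and 65.2 to 153 in KO, and the globins Hbb-bs and Hba-a1 reached 19603 and 38784 in WT 2. B cell markers summed to 1074 in WT 2, to 11.3 and 17.2 in WT 1 and WT 3 and to 1.1 to 1.39 in KO, with Cd79a, a signalling chain of the B cell receptor, at 286 in WT 2. Platelet markers summed to 59.7 in WT 2, to 5.73 and 4.96 in WT 1 and WT 3 and to 0.264 to 0.321 in KO, with Itga2b and Pf4 at 24.9 and 25.4 in WT 2, Ppbp at 0 in all KO libraries and Gp1bb at 0 in all 6. By limma 0 of 6 erythroid, 0 of 3 B cell and 0 of 2 platelet markers tested passed as lower (3, 2 and 2 at an unadjusted p under 0.05, and 0, 0 and 2 by voom), while without WT 2 the numbers were 3, 3 and 2. Of all genes tested 13.3% passed as lower, and 25.3% without WT 2. The 1 erythroid marker that rose was Tfrc, the transferrin receptor of dividing cells.

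NK markers summed to 207 to 367 in WT and 571 to 619 in KO. Most of the KO sum came from Gzma, a granule protease, which had 12.9 to 50.8 in WT and 566 to 615 in KO. Of 5 tested Gzma rose and 4 fell, beside 13.1% and 13.3% of all genes. Among the 4 was Klrb1c, with 14.3 to 44.7 in WT and 0.236 to 0.780 in KO. Ncr1, the first of that list, was under the filter, with 0.884 to 6.95 in WT and 0.0403 to 0.139 in KO. T cell markers gave sums of 752 to 1526 in WT and 910 to 1182 in KO, and 1 of 8, Cd4, rose (beside 13.1% of all genes). The invariant chains Cd3e and Cd3d, which define T cells, had 22.6 to 60.03 and 89.8 to 561 in WT and 44.5 to 56.8 and 115 to 156 in KO, so both groups held T cell RNA. What these cells contributed to the values of the replication genes was not tested. Tfrc, Gzma and Cd4 were named after their values were seen.

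Promoters of the set were searched for 2 motifs that many replication genes carry, and windows of genes that rose and of genes that did not pass are shown to let the letters be seen beside the calls. RefSeq promoters of the GRCm38.p6 assembly, 250 bases before to 50 after the start, were found for 37 of the 45 genes (not for Gins1, Gins2, Gins4, Gmnn, Mcm4, Pole, Prim2 and Rfc2). The E2F forms searched were TTTCCCGC, TTTCGCGC, TTTGCCGC and TTTGGCGC on both strands. One of them was present in 15 of the 37 promoters (40.5%), against 2.32% of all 27025 promoters and 4.33% of the promoters of genes tested. The forms without the first T, which the longer forms contain, were in 21 of 37 (56.8%, against 9.69% of all promoters and 17.6% of those of genes tested), and CCAAT was in 21 of 37 (56.8%, against 37.9% and 39.5%). The longer forms were in 5 of the 11 promoters of genes that rose and in 10 of the 26 of genes that did not pass, so this share did not separate the genes that rose. A match is a description of letters and not a bound site.

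Windows of 28 bases around a long E2F form are shown, to let the forms be compared between complexes. Shown are the 8 genes with such a window wholly before the RefSeq start. In each window 1 form is in capitals, on the strand of the gene. In the window of Mcm5 the capitals mark the form at bases -149 to -142 from the RefSeq start, and another that overlaps it, at -153 to -146, is left partly in lower case. They lie at chr4:108579417-108579444 (plus strand, Orc1), chr4:34614966-34614993 (minus, Orc3), chr8:75109350-75109377 (plus, Mcm5), chr1:128359735-128359762 (minus, Mcm6), chr5:138172031-138172058 (minus, Mcm7), chr11:98908003-98908030 (plus, Cdc6), chr8:95633508-95633535 (plus, Gins3) and chrX:93632276-93632303 (minus, Pola1). Orc1, Mcm7, Cdc6 and Pola1 rose, and the other 4 did not pass. Not shown are Clspn, which rose, and Mcm3, Cdt1, Pole2, Pold1, Pold3 and Rfc3, which did not pass. Their long forms lie nearer the start or after it, so the genes shown do not give the share that rose.
Orc1: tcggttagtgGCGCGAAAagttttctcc
Orc3: catgcctcccTTTCCCGCacgccccgcc
Mcm5: aagaactttcGCGCCAAAacgtccagcc
Mcm6: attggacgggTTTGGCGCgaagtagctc
Mcm7: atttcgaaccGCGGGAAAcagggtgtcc
Cdc6: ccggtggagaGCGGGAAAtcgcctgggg
Gins3: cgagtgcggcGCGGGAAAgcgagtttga
Pola1: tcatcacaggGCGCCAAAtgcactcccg

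The promoters of Clspn and Mcm7 are printed as those of the genes with the largest rise that hold a long E2F form, and that of Pcna as the gene with the highest level. Each runs over the 250 bases before the RefSeq start, with E2F forms and CCAAT (or its reverse, ATTGG) in capitals. They lie at chr4:126556730-126556979 (plus strand, Clspn), chr5:138171884-138172133 (minus, Mcm7) and chr2:132253181-132253430 (minus, Pcna), and the RefSeq starts of these genes fall inside the gene bounds of the deposited table. The long E2F form of Clspn lies at bases 22 to 29 after the start, outside the printed run, and no long form was found in the window of Pcna.
Clspn: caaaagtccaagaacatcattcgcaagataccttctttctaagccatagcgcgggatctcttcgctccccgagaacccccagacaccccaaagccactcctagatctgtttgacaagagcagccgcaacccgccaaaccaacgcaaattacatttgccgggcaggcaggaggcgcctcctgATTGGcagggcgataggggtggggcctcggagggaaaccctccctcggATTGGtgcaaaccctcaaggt
Mcm7: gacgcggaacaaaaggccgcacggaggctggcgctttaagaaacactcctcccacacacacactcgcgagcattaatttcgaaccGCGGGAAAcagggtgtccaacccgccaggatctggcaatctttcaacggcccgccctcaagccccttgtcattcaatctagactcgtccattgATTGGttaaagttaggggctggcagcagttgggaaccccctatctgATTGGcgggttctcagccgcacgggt
Pcna: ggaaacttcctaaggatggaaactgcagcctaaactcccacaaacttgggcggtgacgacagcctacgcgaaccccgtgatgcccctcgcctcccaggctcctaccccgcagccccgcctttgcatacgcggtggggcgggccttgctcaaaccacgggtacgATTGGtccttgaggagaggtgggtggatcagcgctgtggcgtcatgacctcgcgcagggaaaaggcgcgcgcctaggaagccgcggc

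The origin recognition complex marks the sites where replication can begin, and 1 of its 6 genes, Orc1, rose (beside 13.1% of all genes). Orc1 (ENSMUSG00000028587, GRCm38 chr4:108579423-108614833, plus strand) encodes its largest subunit, which binds ATP. Its FPKM was 1.25, 0.758 and 0.705 in WT 1 to 3, and 4.57, 5.06 and 4.93 in KO 1 to 3. These are means of 0.903 ± 0.299 and 4.85 ± 0.254 (SD, n = 3 each), and the log2 fold change was 1.63 ± 0.22 (SE, adjusted p = 0.00294, limma). The groups were far apart and the KO libraries close together. Orc2, with the next largest difference, had 6.77, 4.54 and 7.71 in WT and 9.87, 12.2 and 10.03 in KO, with a log2 fold change of 0.69 ± 0.27 (SE, adjusted p = 0.108, limma). Its groups did not overlap, and it passed without WT 2 at 0.50 (adjusted p = 0.0367, limma).

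The other subunits Orc3, Orc4, Orc5 and Orc6 gave log2 fold changes of 0.62, 0.68, 0.32 and 0.66 and did not pass (adjusted p = 0.141, 0.194, 0.415 and 0.195, limma). In Orc3 and Orc4 the level of WT 2, at an FPKM of 7.85 and 2.82, was the lowest of the 6 libraries. In Orc6 it was 21.1, above 18.5 in KO 1, and without WT 2 Orc6 passed at 0.97 (adjusted p = 0.00425, limma). The level of Orc1 relative to Orc2 within a library was 0.184, 0.167 and 0.0914 in WT 1 to 3 and 0.463, 0.414 and 0.491 in KO 1 to 3. This ratio needs no scaling between libraries and did not overlap between the groups. Summed over the complex, FPKM was 40.04, 39.7 and 43.9 in WT and 65.5, 70.9 and 67.3 in KO, without overlap. The gene bodies of Orc1 and Orc2 share 10.8% and 29.8% of their exon bases with another annotated gene.

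The MCM helicase is a ring of 6 related subunits, and 3 of them, Mcm2, Mcm4 and Mcm7, rose (beside 13.1% of all genes). The summed FPKM of the ring was 127, 186 and 90.9 in WT 1 to 3 and 255, 327 and 423 in KO 1 to 3, without overlap. Mcm7 (ENSMUSG00000029730, chr5:138164583-138172422, minus strand) had 20.2, 47.5 and 14 in WT and 64.2, 80.0 and 96.2 in KO. The means were 27.3 ± 17.8 and 80.2 ± 16.0 (SD, n = 3 each), and the log2 fold change was 1.68 ± 0.46 (SE, adjusted p = 0.0395, limma). The lowest KO library lay above the highest WT library, WT 2, and without WT 2 the log2 fold change of Mcm7 was 2.16 (adjusted p = 0.000964, limma). Mcm7 did not pass without WT 1, without WT 3 or without any 1 of the KO libraries (adjusted p = 0.0912 to 0.142, limma). Mcm4 had 25.2, 9.27 and 20.4 in WT and 39.6, 53.9 and 62.1 in KO, a log2 fold change of 1.54 ± 0.41 (SE, adjusted p = 0.0346, limma). Here WT 2 was the lowest library, the opposite of its place in Mcm7. Mcm7 and Mcm4 each passed as higher in 11 of 18 alternative settings, among them median-of-ratios scaling, which repeats the reported fit.

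Mcm2 rose by 1.25 on the log2 scale, from an FPKM of 12.0 ± 2.98 to 30.2 ± 9.62 (SD, n = 3 each, with adjusted p = 0.0291 by limma). Mcm3, Mcm5 and Mcm6 had log2 fold changes of 1.18, 1.31 and 1.11 and did not pass (adjusted p = 0.0563, 0.0544 and 0.0977, limma). All 6 subunits passed without WT 2 (26.8% of all genes were higher there), with the 3 just named at 1.45, 1.59 and 1.48. For Mcm3 and Mcm5 every KO library lay above every WT library, and for Mcm6 WT 2, at 51.9, lay just above KO 1, at 51.2. Of the whole set, the 5 genes that followed Pcna by mean FPKM in KO were Mcm7, Mcm6, Mcm5, Mcm3 and Mcm4, at 80.2, 69.0, 52.0, 51.9 and 51.9, and the last 3 did not differ beyond their spread. Of the exon bases of Mcm7, 12.6% are shared with another gene.

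Of the 6 licensing and firing factors 3 rose, Cdc6, Cdc7 and Mcm10 (beside 13.1% of all genes), and Cdt1, Gmnn and Dbf4 did not pass. Mcm10 (ENSMUSG00000026669, chr2:4989714-5012791, minus strand), which helps turn the loaded helicase on, had an FPKM of 1.36, 2.91 and 0.528 in WT 1 to 3 and 6.23, 7.0 and 9.04 in KO 1 to 3. The means were 1.6 ± 1.21 and 7.42 ± 1.46 (SD, n = 3 each), and the log2 fold change was 1.79 ± 0.38 (SE, adjusted p = 0.0167, limma). Cdc6, the loader that joins the origin recognition complex, had 3.54, 4.33 and 1.30 in WT and 6.92, 9.58 and 12.6 in KO, a log2 fold change of 1.45 ± 0.40 (SE, adjusted p = 0.0392, limma). In both genes the groups did not overlap and WT 3 was the lowest library.

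Cdt1, the partner of Cdc6 in loading, had 25.1, 34.4 and 25.5 in WT and 30.8, 24.9 and 38.6 in KO, with a log2 fold change of 0.14 (adjusted p = 0.757, limma). The groups overlapped. Gmnn, which encodes the Cdt1 inhibitor geminin, had 10.6, 30.5 and 6.39 in WT and 21.5, 27.9 and 29.4 in KO, a log2 fold change of 0.96 (adjusted p = 0.245, limma) that was 1.55 without WT 2 (adjusted p = 0.00354, limma). For Gmnn the call rests on WT 2, whose level exceeded that of every KO library. The level of Cdc6 relative to Cdt1 was 0.141, 0.126 and 0.0508 in WT and 0.225, 0.386 and 0.327 in KO, without overlap, whereas Cdt1 relative to Gmnn overlapped.

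The kinase Cdc7 and its activator Dbf4 parted. Cdc7 had an FPKM of 7.48, 2.64 and 6.23 in WT and 13.9, 16.7 and 15.2 in KO, a log2 fold change of 1.42 ± 0.36 (SE, adjusted p = 0.0301, limma). Dbf4 had 13.0, 4.02 and 8.45 in WT and 7.44, 8.63 and 8.33 in KO, a log2 fold change of 0.065 ± 0.40 (SE, adjusted p = 0.925, limma). Without WT 2 the log2 fold change of Dbf4 was -0.33 (adjusted p = 0.209, limma). The level of Dbf4 relative to Cdc7 was 1.73, 1.52 and 1.36 in WT and 0.537, 0.516 and 0.548 in KO. WT 2 lay inside the WT range in this ratio, although both of its genes were lowest there.

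Cdc45 and the 4 GINS genes complete the active helicase with MCM, and 0 of the 5 passed by limma (0 at an unadjusted p under 0.05 and 0 by voom). Of all genes tested 13.1% were called higher, so 0 of 5 does not set this group apart. Cdc45 had an FPKM of 6.12, 12.0 and 2.41 in WT and 11.5, 15.1 and 15.6 in KO, with a log2 fold change of 1.13 ± 0.49 (SE, adjusted p = 0.147, limma). Gins1 had 2.65, 14.5 and 1.79 in WT and 9.38, 11.2 and 17.7 in KO, with a log2 difference of 1.30 ± 0.67 (SE, adjusted p = 0.207, limma). In both genes WT 2 stood within the KO range. Without it all 5 passed (26.8% of all genes were higher), Cdc45 at 1.6 (adjusted p = 0.00955, limma) and Gins1 at 2.06 (adjusted p = 0.00240, limma). Gins2, Gins3 and Gins4 had log2 fold changes of 0.54, 0.56 and 0.58 (adjusted p = 0.510, 0.236 and 0.222, limma). For Gins2 67.3% of its exon bases are shared with another gene, so its value is uncertain.

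In sum, Cdc45 and GINS had an FPKM of 30.4, 67.3 and 22.6 in WT and 57.3, 66.8 and 74.2 in KO. The WT 2 sum fell between those of KO 2 and KO 3.

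**Figure D2:**
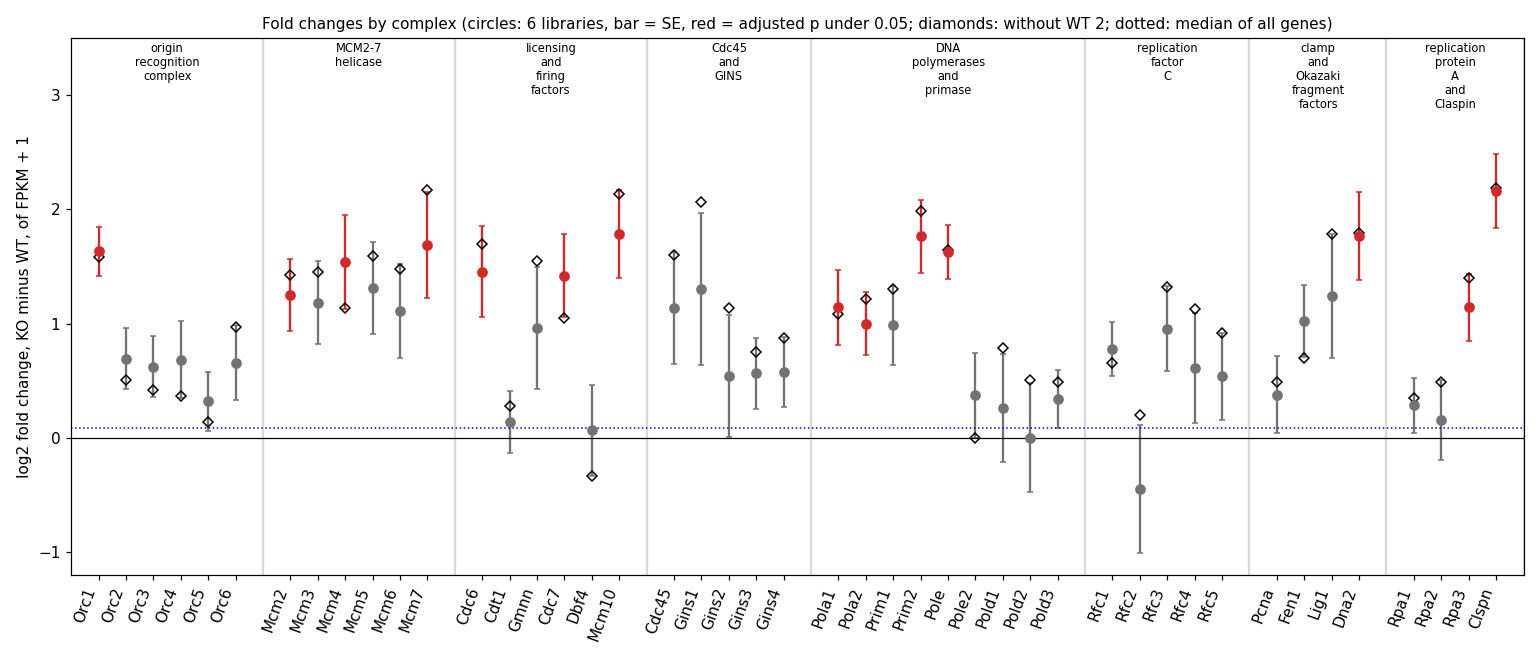
Log2 fold change of FPKM + 1 (KO minus WT) for each of the 45 genes by complex, with the standard error as a bar, red for an adjusted p under 0.05, diamonds for the fit without WT 2 and a dotted line for the median of all genes at 0.086. Of the circles, 44 lie above 0, and Rfc2 lies at -0.45.

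Of the 9 genes of the DNA polymerases and primase 4 rose, Prim2, Pole, Pola1 and Pola2 (beside 13.1% of all genes). Prim2 (ENSMUSG00000026134, chr1:33453810-33669795, minus strand), the large primase subunit, had an FPKM of 2.27, 3.32 and 1.31 in WT and 8.29, 9.15 and 12.6 in KO. The means were 2.30 ± 1.00 and 10.02 ± 2.29 (SD, n = 3 each), and the log2 fold change was 1.76 ± 0.32 (SE, adjusted p = 0.00889, limma). Pole (ENSMUSG00000007080, chr5:110286306-110337474, plus strand), the catalytic subunit of the polymerase that copies the leading strand, had 2.70, 2.71 and 2.53 in WT and 8.55, 10.1 and 12.5 in KO. The WT mean was 2.65 ± 0.101 (SD, n = 3), WT 2 included, and the log2 fold change was 1.63 ± 0.24 (SE, adjusted p = 0.00411, limma).

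Pola1 and Pola2, the catalytic and regulatory subunits of the polymerase bound to primase, rose by 1.14 and 1.00 on the log2 scale (adjusted p = 0.0453 and 0.0407, limma). Both lay near the threshold. Prim1, the small primase subunit, had a log2 fold change of 0.98 (adjusted p = 0.0849, limma) and passed without WT 2 at 1.31. The accessory subunit Pole2 had 4.36, 1.59 and 4.95 in WT and 3.80, 5.09 and 5.11 in KO, with a log2 difference of 0.37 (adjusted p = 0.518, limma), and -0.0039 without WT 2. Pole and Pole2 differed in their relative level: Pole2 to Pole was 1.62, 0.588 and 1.95 in WT and 0.444, 0.504 and 0.409 in KO. Prim1 to Prim2 was 3.26, 4.04 and 4.17 in WT and 1.77, 1.91 and 1.58 in KO. Neither ratio overlapped between the groups.

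The delta polymerase copies the lagging strand. Of its genes, Pold1, Pold2 and Pold3 belong to the set. They had log2 fold changes of 0.26, 0.00015 and 0.34 and did not pass (adjusted p = 0.733, 0.9998 and 0.383, limma). The level of Pold2 in WT 2 was an FPKM of 46.1, beside 14.6 and 16.4 in WT 1 and WT 3 and 17.3 to 29.8 in KO. Without WT 2 the log2 fold changes were 0.78, 0.51 and 0.49, and Pold1 passed (adjusted p = 0.0165, limma). The level of Pold2 relative to Pold1, the catalytic subunit, overlapped between the groups. Pold4, another delta subunit, is outside the set and had an FPKM of 22.4, 139 and 26.1 in WT and 11.5, 7.47 and 9.69 in KO. Its log2 fold change was -2.10 (adjusted p = 0.0694, limma), and -1.27 without WT 2 (adjusted p = 0.00358, limma). The 9 genes of the polymerases and primase summed to an FPKM of 72.3, 152 and 72.6 in WT and 132, 140 and 171 in KO, with WT 2 inside the KO range.

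Replication factor C is the ring of 5 that opens the clamp, and by limma 0 of 5 genes passed (2 at an unadjusted p under 0.05, 0 by voom). With 13.1% of all genes called higher, 0 of 5 does not set the ring apart. Rfc3 had an FPKM of 3.93, 9.59 and 3.90 in WT and 10.2, 10.1 and 13.9 in KO, with a log2 fold change of 0.95 ± 0.37 (SE, adjusted p = 0.112, limma). Rfc1, the large subunit, had 14.2, 9.66 and 11.4 in WT and 18.8, 21.2 and 22.0 in KO, with a log2 difference of 0.78 ± 0.24 (SE, adjusted p = 0.0542, limma). The groups did not overlap in either. Rfc2 (ENSMUSG00000023104, chr5:134581366-134601805, plus strand) was the 1 gene of the set with a negative log2 fold change, -0.45 with a standard error of 0.56 (adjusted p = 0.606, limma). Its FPKM was 9.93, 37.6 and 8.19 in WT and 8.88, 10.4 and 12.6 in KO, so the sign rests on WT 2, and it was 0.20 without that library and 0.37 after rescaling to TPM, where the median of all genes was 0.78.

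Rfc4 and Rfc5 had log2 fold changes of 0.61 and 0.54 (adjusted p = 0.405 and 0.350, limma). Without WT 2 every gene of the ring but Rfc2 passed (26.8% of all genes were higher). Rfc2 to Rfc3 was 2.53, 3.92 and 2.10 in WT and 0.869, 1.03 and 0.907 in KO, a relative level that did not overlap between the groups with WT 2 included. The ring summed to an FPKM of 43.9, 97.4 and 36.3 in WT and 63.5, 75.2 and 84.7 in KO, and WT 2 was above every KO library.

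Of the 4 clamp and Okazaki fragment factors 1, Dna2, rose (beside 13.1% of all genes), and Pcna, Fen1 and Lig1 did not pass. With that share, 1 of 4 does not set this group apart. Dna2 (ENSMUSG00000036875, chr10:62947026-62974185, plus strand), a nuclease and helicase that trims long flaps, had an FPKM of 4.19, 2.43 and 1.01 in WT and 8.69, 10.8 and 11.4 in KO. The means were 2.54 ± 1.59 and 10.3 ± 1.41 (SD, n = 3 each), and the log2 fold change was 1.77 ± 0.38 (SE, adjusted p = 0.0172, limma). Lig1, the ligase that seals the fragments, had 11.5, 29.3 and 6.68 in WT and 25.6, 28.3 and 48.3 in KO, with a log2 difference of 1.24 ± 0.54 (SE, adjusted p = 0.149, limma). WT 2 exceeded KO 1 and KO 2 in Lig1, which passed without WT 2 at 1.78.

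Pcna, the sliding clamp, had the highest mean of the set in both groups. Its FPKM was 83.1, 106 and 82.8 in WT and 81.4, 128 and 155 in KO, with a log2 fold change of 0.38 ± 0.34 (SE, adjusted p = 0.463, limma). KO 1 lay below every WT library, and Pcna did not pass without WT 2 either, at 0.49. The annotated copies Pcna-ps2 and Pcna-ps1 had at most 33 and 0 reads in a library, beside 2983 to 5973 for Pcna. How the counting treated reads that match more than 1 copy is not given in the sources used here, so the level of Pcna is uncertain. Fen1, the flap endonuclease, had 50, 4 and 42 reads in WT and 102, 109 and 107 in KO, with a log2 fold change of 1.02 (adjusted p = 0.0563, limma). It was the lowest gene of the set in KO, and 84.2% of its exon bases are shared with another gene, so both its low level and its difference are uncertain.

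The last group protects and monitors single strands, and 2 of its 4 genes, Clspn and Rpa3, rose (beside 13.1% of all genes). Clspn (ENSMUSG00000042489, chr4:126556935-126593903, plus strand) encodes Claspin, which links the fork to the checkpoint kinase Chk1, and had the largest difference of the set. Its FPKM was 2.73, 1.92 and 1.09 in WT 1 to 3 and 9.55, 10.6 and 15.6 in KO 1 to 3. The means were 1.91 ± 0.823 and 11.9 ± 3.22 (SD, n = 3 each), a ratio of 6.24, and the log2 fold change was 2.16 ± 0.32 (SE, adjusted p = 0.00438, limma). The lowest KO library lay well above the highest WT library, and without WT 2 the log2 fold change was 2.18.

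Rpa3, the smallest subunit of the single-strand binding protein, had 11.2, 20.2 and 11.5 in WT and 29.1, 36.0 and 30.5 in KO, with a log2 fold change of 1.14 ± 0.29 (SE, adjusted p = 0.0310, limma). The larger subunits Rpa1 and Rpa2 had log2 fold changes of 0.28 and 0.15 (adjusted p = 0.437 and 0.786, limma) and overlapped between the groups. Rpa3 relative to Rpa2 was 0.611, 0.555 and 0.681 in WT and 1.32, 1.52 and 0.996 in KO. The 3 subunits bind as 1 trimer, and the level of Rpa1 relative to Rpa2 overlapped.

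Relative levels within a library do not depend on how libraries are scaled to each other, and 18 pairs were taken after the values had been seen, so they carry no test. Between genes of unlike length they can still carry the length profile of WT 2. That library exceeded WT 1 and WT 3 in all 6 genes of the set under 2000 bases and in 14 of 23 of 4000 bases or more. Of the 18 pairs, 9 did not overlap between the groups. Lower in KO were Dbf4 to Cdc7, Pole2 to Pole, Prim1 to Prim2 and Rfc2 to Rfc3. Higher were Rpa3 to Rpa2, Orc1 to Orc2, Cdc6 to Cdt1, Mcm7 to Mcm6 and Clspn to Cdc45. Among single genes tested, 26.2% had all KO libraries above all WT libraries and 22.9% had them all below. No share over other pairs was taken, so the count is not read as particular to these genes. Mcm7 to Mcm6 was 0.735, 0.914 and 0.699 in WT and 1.26, 1.17 and 1.1 in KO. The other 9 pairs overlapped, among them Mcm2 to Mcm6, Mcm3 to Mcm5 and Pola2 to Pola1.

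**Figure D3:**
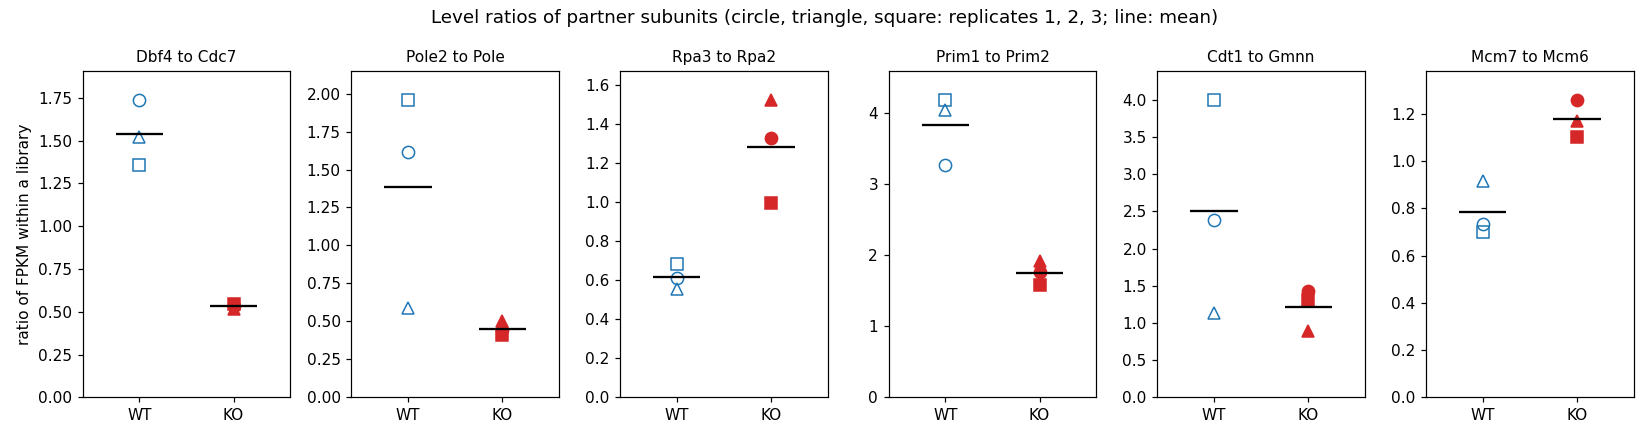
Ratio of FPKM within a library for 6 pairs of partner genes in WT (open blue) and KO (filled red), with circle, triangle and square for replicates 1, 2 and 3 and a line for the mean. Dbf4 to Cdc7 lies at 1.36 to 1.73 in WT and 0.516 to 0.548 in KO, whereas Cdt1 to Gmnn overlaps.

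A further 46 genes of licensing and the fork, all tested, were counted in the same way, and 17 rose and 1 fell (37.0% higher, beside 13.1% of all genes), with a median log2 fold change of 0.89. The largest rises were those of Atad5, Timeless and Recql4. Atad5, which unloads the clamp, had an FPKM of 3.49, 0.621 and 2.96 in WT and 18.2, 16.6 and 19.4 in KO, a log2 fold change of 2.63 (adjusted p = 0.00556, limma). Timeless, a fork protection factor, had 2.83, 2.63 and 3.15 in WT and 18.4, 20.6 and 22.7 in KO, with a log2 difference of 2.48 (adjusted p = 0.000704, limma), and Recql4, a helicase, had a log2 difference of 2.02 (adjusted p = 0.00349, limma). Timeless differed little within each group, WT 2 included.

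Donson, a factor of helicase assembly, was the 1 gene of the 46 that fell, with 17.6, 8.42 and 17.7 in WT and 5.75, 5.32 and 5.79 in KO, a log2 fold change of -1.17 (adjusted p = 0.0425, limma). The groups did not overlap, but Donson passed as lower in only 9 of 18 alternative settings. There its log2 fold change ran from -1.50 to -0.46 (adjusted p up to 0.633, limma). Without WT 2, 27 of the 46 rose (58.7%, beside 26.8% of all genes) and 2, Donson and Pold4, fell. Without KO 2 or without KO 3 the number that rose was 6 (13.0%, beside 7.0% and 7.18% of all genes). The long E2F forms were in 6 of the 35 promoters found for these genes (17.1%).

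How far single calls rest on settings differed between genes. Clspn, Pole and Prim2 passed as higher in each of 18 alternatives and Orc1 in each of the 17 in which it was tested. Among these, median-of-ratios scaling repeated the reported fit, because the deposited values already carry it, so it is no separate check. Every count of alternatives given here includes it. The other 10 genes that rose passed in 9 to 15. The number of genes of the set that rose was 26 with scaling by total reads (chosen after the data were seen) and 26 after rescaling to TPM, where the median over all genes tested was 0.41 and 0.78 instead of 0.086 and the share of all calls that were higher was 63.8% and 68.6% instead of 49.6%. Relative to those shifts the median of the set was 0.92 and 1.07, beside 0.87 as reported.

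**Figure D4:**
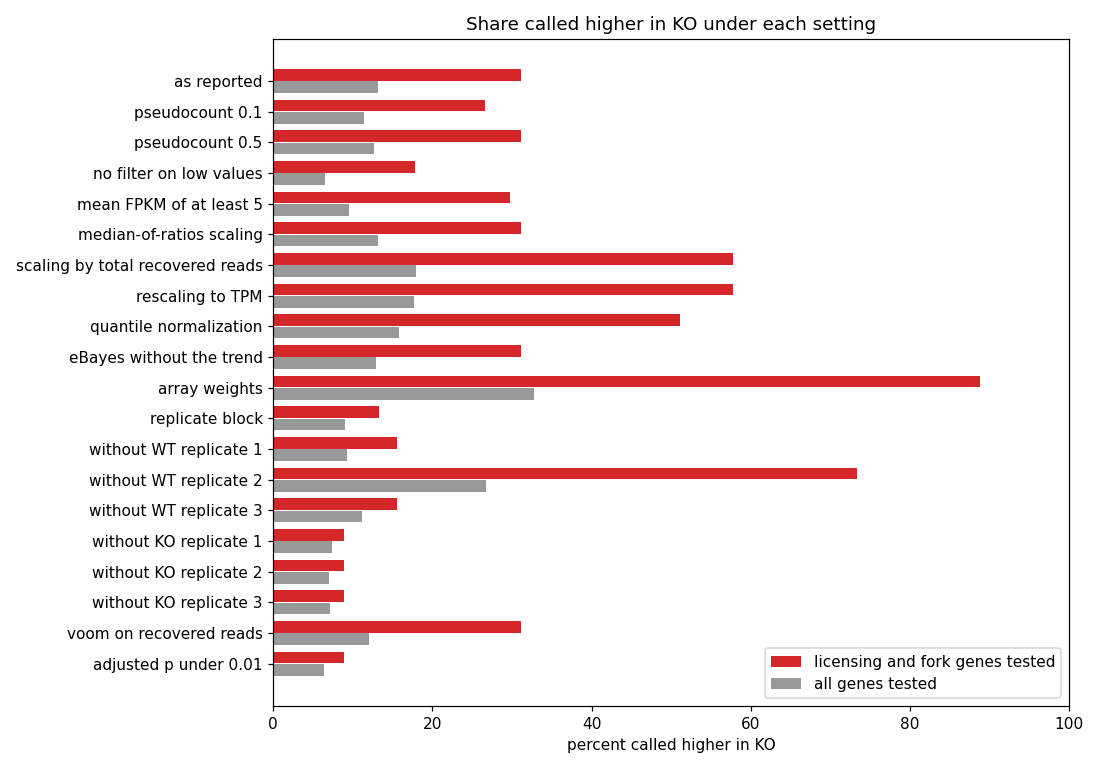
Percent of the licensing and fork genes tested (red bars) and of all genes tested (grey bars) called higher in KO under each setting of the analysis. The red bar is the longer in every setting drawn, and it is longest with array weights, at 88.9%, and shortest without a KO library or at an adjusted p under 0.01, at 8.89%.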

How the data were processed

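RNA had been isolated by the authors with Trizol, and NEBNext libraries were sequenced as read pairs. The submitters' processing notes name HISAT2 2.0.5, featureCounts 1.5.0-p3 and GRCm38 (mm10), and the annotation release and use of strand are not given in the sources used here. The deposited values are FPKM per gene, made by the authors from fragment counts. Values were whole multiples of 1 read (100% within a tolerance of 0.001), which gave 13015823 to 18235095 reads per library. The library sizes the authors divided by were 0.645 to 1.21 times these totals and proportional to median-of-ratios factors, so this scaling is part of every value. A gene with 0 reads could have had up to 3 in that library, and such limits cover counting error only. Of 54532 genes, 53499 had the coordinates of the GENCODE M21 annotation.

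Genes that reached 1 FPKM in 3 or more of the 6 libraries (13393) were tested as log2(FPKM + 1), a scale that understates changes of low genes, with limma 3.58.1 in R 4.3.3 (eBayes with trend, two-sided, Benjamini-Hochberg over all genes tested, threshold 0.05). The study itself used a model for counts. With 3 libraries a group the smallest exact permutation p is 0.1, and that test was not used. All 45 genes are named. Values in every library are given for the 2 with the largest absolute fold change in each complex and for those with a sign opposite to their complex, and other genes so described were chosen after their values were seen. A value of 1 marker gene is not reported here. The members and the lists were chosen with earlier results of these data known. The model was run on simulated data with independent normal values per gene and the same spread in every library. That run holds no library that stands apart as WT 2 does, so it does not cover such a case. Alternatives were other pseudocounts, filters, scalings and thresholds, no trend, array weights, voom, the replicate number as a block, and leaving out each library.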

Additional observations from a re-analysis of the deposited data

How the results depend on the processing

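The 14 genes of the set called higher by limma became 8 with no filter on low values, 26 with scaling by total reads (added after the data were seen), 26 after rescaling to TPM, 23 after quantile normalization, 40 with array weights and 4 at an adjusted p under 0.01. Leaving out 1 library gave 4 to 33 for the set, 1934 to 6967 for all genes in both directions (3539 as reported) and 6 to 27 for the further 46 genes (17 as reported). Without a KO library the share of the set called higher, 8.89%, was near that of all genes, 7.0% to 7.38%. With array weights 1 gene of the set, Dbf4, was lower, as were 4073 of all 13393 genes tested. All genes called were 1837 at a mean FPKM of at least 5, 8461 with array weights and 1812 at an adjusted p under 0.01. The further genes higher were 8, 30 and 6 in these settings, beside 9.47%, 32.8% and 6.32% of all genes. With the replicate block 6 genes of the set passed as higher (Clspn, Dna2, Mcm10, Orc1, Pole and Prim2), beside 9.01% of all genes. Libraries of the same number did not deviate together (correlations of 0.095, 0.10 and -0.15), and not every library correlated best with its own number, so the pairing is in number only.

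Of 802 fold changes of single genes under an alternative 648 kept their direction and side of the threshold, 80 passed newly, 62 no longer passed and 12 turned direction. The 648 include those under median-of-ratios scaling, which could not change because it repeats the reported fit. Leaving out 1 library turned Cdt1 (range -0.019 without KO 3 to 0.29), Dbf4 (-0.33 without WT 2 to 0.41), Pole2 (-0.0039 without WT 2 to 0.59), Pold1 (-0.023 without WT 3 to 0.78), Pold2 (-0.29 without WT 1 to 0.51, with -0.21 without WT 3 and -0.20 without KO 3), Rpa2 (-0.042 without WT 3 to 0.49) and Rfc2 (-0.83 to 0.20 without WT 2). Array weights turned Dbf4 (-0.51) and Rfc2 (0.11), and rescaling to TPM turned Rfc2 (0.37). The cause was not tested. Depth limits Fen1 most, with 4 reads in WT 2.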
